A study of Mus musculus with 24 samples.

Results

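The transcriptome of B cells from the draining lymph nodes of melanoma-bearing mice was compared between 3 libraries labelled KO and 3 labelled WT, chosen by the column names of the deposited count table. These 6 of the study's 24 libraries are described across all genes. The study profiled B cells and regulatory T cells (Tregs, CD4 T cells that restrain other lymphocytes and depend on Foxp3) by bulk RNA sequencing after sorting from the tumour or the node, the tumour being B16-F0, a pigmented mouse melanoma. WT stands for Foxp3-Cre-YFP mice, which carry Cre recombinase under the Foxp3 gene, and KO for Foxp3-Cre-YFP Appl2f/f mice, in which the same Cre meets loxP-flanked Appl2 alleles. Both groups therefore carry the Cre transgene and a tumour. Foxp3 is a gene of Tregs, so the B cells are not the population in which this Cre is meant to act. The labels give no age and do not say whether replicates are separate mice, so the p-values measure the spread between these libraries only.

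Naive B cells recirculate through lymph node follicles, where the chemokine receptors and adhesion molecules on their surface place them and where antigen binding to the B cell receptor starts activation. Immediate early genes, such as those for the Fos, Jun, Egr and Nr4a transcription factors, are transcribed within minutes of receptor, growth factor or stress signals without new protein synthesis. In class switching, an activated B cell replaces the IgM and IgD constant regions of its antibody with those of an IgG, IgE or IgA class. The product of Appl2 is an adaptor protein that sits on early endosomes through the GTPase Rab5.

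Library totals ran from 11245101 to 12727115 counts, and 18788 to 19536 genes had at least 1 count. Levels are in CPM, counts scaled to a common library size with TMM factors, differences are log2 fold changes of KO-labelled over WT-labelled libraries with the standard error of the edgeR fit, and "rose" or "fell" marks an adjusted p under 0.05. The B cell label matched its markers: Ms4a1, which codes for CD20, stood at 462, 492 and 493 CPM in the KO-labelled libraries and 489.6, 519.6 and 501 CPM in the WT-labelled ones, and Pax5, the transcription factor that fixes B cell identity, at 1725 ± 60.6 against 1624 ± 16.9 CPM (SD, n = 3). Neither passed the test, with differences of -0.06 ± 0.05 and 0.09 ± 0.04, although Pax5 passed at 0.09 without KO-labelled replicate 1. Mitochondrial genes took 0.843, 0.785 and 0.727 % of counts in the KO-labelled libraries and 0.924, 0.887 and 0.871 % in the WT-labelled ones. KO-labelled replicate 1 stood somewhat apart, with a chi-square per gene of 5.59 and 6.13 against the other KO-labelled libraries. Every other pair within a label lay between 2.81 and 3.68. For genes with 40 to 200 counts in a pair, all pairs within a label lay between 2.32 and 2.66. These values do not tell separate mice from repeats of the same pool. None of 4 tested sex-linked genes passed.

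Appl2 itself, on chromosome 10 at 83435897 to 83484602 of GRCm39, was lower in the KO-labelled B cells. It stood at 11.2, 10.6 and 11.5 CPM in the KO-labelled libraries and 25.98, 23.9 and 20.9 CPM in the WT-labelled ones, so the groups did not overlap. The difference was -1.08 ± 0.13 (edgeR, adjusted p = 2.2e-07), resting on 405 and 823 counts over the 3 libraries of each group. Between the same labels Appl2 differed by -1.53 in tumour B cells and by 0.23 in lymph node Tregs, so it was not lower in those Tregs. In bulk samples fewer expressing cells and less RNA per cell cannot be told apart, here and below. Its paralog Appl1 differed by -0.04 ± 0.06 and did not pass, nor did 10 more of the 13 genes of the Appl and Rab5 endosome list, where 21.1 % of all genes tested were called. The other called gene was the endosomal GTPase Rab7 (0.19 ± 0.07), which no longer passed with DESeq2, upper-quartile scaling or no filter, nor without KO-labelled replicate 1 or 3 or any WT-labelled replicate, at 0.17 to 0.21. Foxp3 was low, at 7.79 against 10.7 CPM, with a difference of -0.45 ± 0.17 (edgeR, adjusted p = 0.058), and 31.5 % of its exon bases overlap another gene. Around Appl2, 50 of 229 tested genes within 10 Mb were called (21.8 %), beside 103 of 417 on the rest of chromosome 10 (24.7 %). Among the near genes, chosen after their values were seen, the DNA repair glycosylase Tdg fell by 0.98 and Washc4, an endosomal WASH complex gene, fell by 0.34 on the log2 scale, while the chondroitin sulfotransferase Chst11 rose by 1.70 ± 0.29. Tdg has near-identical copies in the genome, so its counts are uncertain.

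Of 13608 genes tested in the lymph node B cells, 2872 passed (21.1 %), 1498 of them higher (11.0 % of genes tested) and 1374 lower (10.1 %) in the KO-labelled libraries. The counts for gene lists below are to be read beside these shares. At least a 2-fold difference was seen for 219 of the higher and 324 of the lower genes. The median difference over all genes was -0.01 and the median size among called genes 0.46 on the log2 scale. The groups did not overlap for 4783 genes (35.1 %), more than the 21.1 % called. In the plot of all genes, immediate early genes and Igha lie among the highest called genes and collagens among the lowest.

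**Figure D1:**
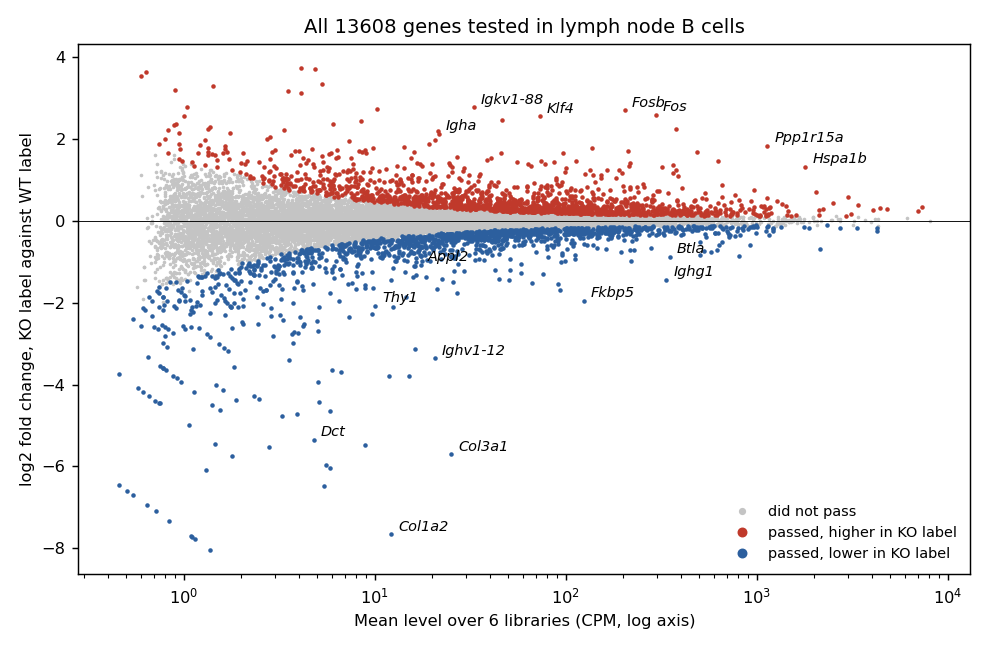
Log2 fold change of KO-labelled over WT-labelled lymph node B cells (y axis) against the mean level over the 6 libraries (x axis, CPM, log axis) for each of the 13608 genes tested, red where higher and blue where lower among genes that passed, grey otherwise. The 1498 red points include Fos, Fosb, Klf4 and Igha, and the 1374 blue points reach further from 0, down to collagen genes such as Col1a2 and low genes with almost no counts in the KO-labelled libraries.

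The immediate early genes rose together. All 28 tested members of a list of 29 were called higher, with a median difference of 1.27, and at least 27 were called under each alternative setting and each library left out. Their summed level was 6851 to 7021 CPM in the KO-labelled libraries and 2300 to 2400 CPM in the WT-labelled ones. Fos, the partner of Jun in the AP-1 transcription factor, stood at 477, 518 and 526 CPM in the KO-labelled libraries and 87.3, 80.8 and 85.2 CPM in the WT-labelled ones, a difference of 2.59 ± 0.05 (edgeR, adjusted p = 1e-23). Its relative Fosb stood at 344, 357 and 355 CPM in the KO-labelled libraries and 59.4, 54.9 and 49.5 CPM in the WT-labelled ones, a difference of 2.69 ± 0.06. The 3 KO-labelled values of each lay close together and far above all 3 WT-labelled values.

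Other AP-1 genes moved the same way. Junb stood at 623, 614 and 623 CPM in the KO-labelled libraries and 139, 128 and 129 CPM in the WT-labelled ones (2.23 ± 0.05), Jun rose by 1.66 ± 0.05 and Atf3 by 1.52 ± 0.19. The Jund difference of 1.30 ± 0.06 is less certain, since 52.6 % of its exon bases overlap another gene. Among the zinc finger factors, Klf4, which restrains B cell proliferation, stood at 128, 120.1 and 125 CPM in the KO-labelled libraries and 23.95, 22.1 and 18.03 CPM in the WT-labelled ones (2.54 ± 0.08). Egr1 rose by 1.64 ± 0.07, Egr3 by 1.14 ± 0.06 and Egr2 by 0.62 ± 0.11. The Nr4a orphan nuclear receptors, whose induction follows antigen receptor signalling in lymphocytes, rose by 2.46 ± 0.09 for Nr4a3, 1.73 ± 0.18 for Nr4a2 and 1.24 ± 0.05 for Nr4a1. Nr4a1 reached 531 ± 18.7 against 225 ± 5.28 CPM (SD, n = 3).

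The feedback regulators of the same wave also rose. Ppp1r15a, which codes for GADD34 and directs dephosphorylation of the translation factor eIF2α, stood at 1763, 1721 and 1817 CPM in the KO-labelled libraries and 510.4, 496 and 489 CPM in the WT-labelled ones, a difference of 1.83 ± 0.04 (edgeR, adjusted p = 1.6e-23). Dusp1, a phosphatase of MAP kinases, rose by 1.55 ± 0.11, Ier2 by 1.52 ± 0.09, Zfp36, which codes for the mRNA decay factor tristetraprolin, by 1.03 ± 0.07, and the antiproliferative gene Btg2 by 0.83 ± 0.06. Myc had the smallest difference of the list, 0.26 ± 0.07, and was no longer called without WT-labelled replicate 1 (0.18).

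**Figure D2:**
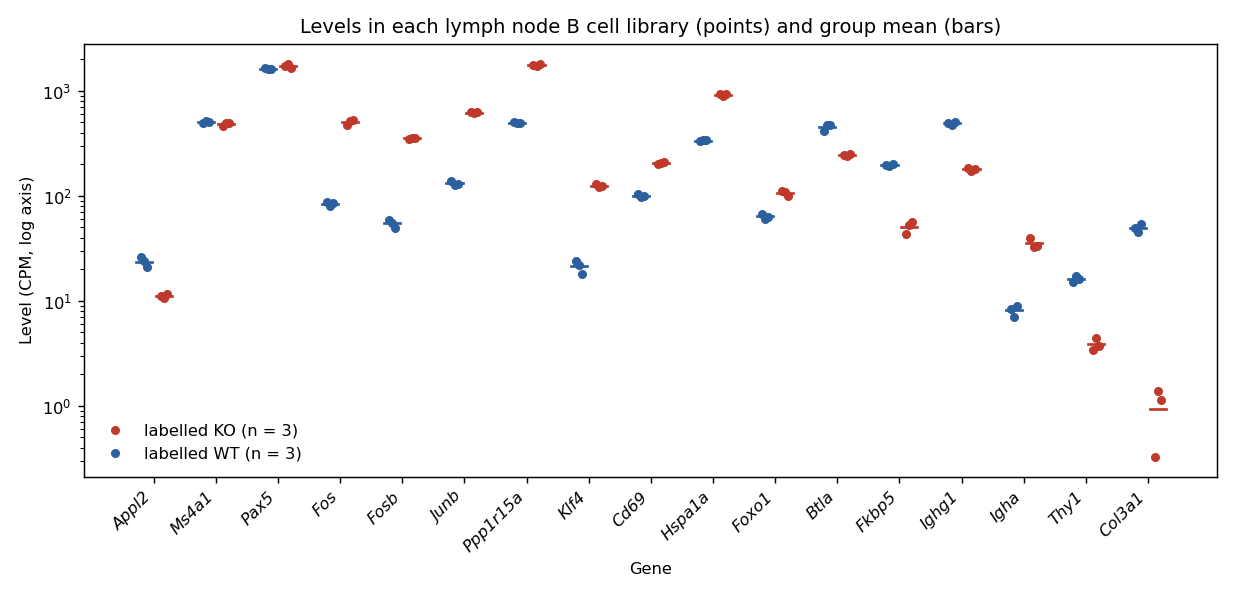
CPM (y axis, log axis) of 17 genes (x axis) in each of the 6 lymph node B cell libraries, with red points for KO-labelled and blue points for WT-labelled libraries and short horizontal bars at the group means. Fos, Fosb, Junb, Klf4 and Ppp1r15a show red points well above the blue ones, Fkbp5, Btla, Ighg1, Thy1 and Col3a1 the reverse, and the Ms4a1 and Pax5 groups lie side by side.

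The promoters of these genes show which of them carry letters read by known signal-dependent factors. RefSeq promoters of build GRCm38.p6, from 250 bases before to 50 after each start, were found for 24 of the 28 genes. The palindromic cyclic AMP response element, TGACGTCA, bound by CREB and ATF factors, was in 4 of the 24 (Ppp1r15a, Dusp1, Btg2 and Maff), or 16.7 %, beside 2.03 % of all 27025 genes with a promoter and 3.67 % of those tested here. The CArG box, bound by serum response factor, was in 3 (Egr2, Zfp36 and Dusp5), or 12.5 %, beside 1.81 % of all and 1.52 % of those tested. Both strands were searched, a gene with several starts was counted once, and no motif holds the letters of another. The AP-1 motif TGANTCA and the octamer ATTTGCAT, a motif of B cell factors, were each in 1 of 24, 4.17 % against 8.97 and 1.97 % of all. Among genes tested these shares were 5.69 and 1.62 %. The windows of Fos, Fosb, Junb and Klf4 held none of these letters. Only 66.5 % of tested genes had a promoter, so the shares of tested and of called genes cover only part of them. Among genes called higher, 5.5 % had the cyclic AMP response element, 1.44 % the CArG box, 6.81 % the AP-1 motif and 2.78 % the octamer. Among genes called lower these shares were 2.80, 1.62, 6.14 and 1.72 %. The list was chosen by hand, and no share was tested. Of the promoters with a match, 4 are shown for how the motif lies before the start, with the cyclic AMP response element in capitals in the first pair, the CArG box in the last pair and, in Egr2, also the octamer read on the other strand.
Ppp1r15a, chr7:45526219-45526518, minus strand: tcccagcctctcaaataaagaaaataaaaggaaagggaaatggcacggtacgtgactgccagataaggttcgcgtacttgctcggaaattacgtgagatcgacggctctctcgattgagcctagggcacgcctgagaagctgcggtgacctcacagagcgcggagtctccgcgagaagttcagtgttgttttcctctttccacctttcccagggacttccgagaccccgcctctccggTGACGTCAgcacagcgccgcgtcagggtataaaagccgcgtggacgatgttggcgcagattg
Dusp1, chr17:26508423-26508722, minus strand: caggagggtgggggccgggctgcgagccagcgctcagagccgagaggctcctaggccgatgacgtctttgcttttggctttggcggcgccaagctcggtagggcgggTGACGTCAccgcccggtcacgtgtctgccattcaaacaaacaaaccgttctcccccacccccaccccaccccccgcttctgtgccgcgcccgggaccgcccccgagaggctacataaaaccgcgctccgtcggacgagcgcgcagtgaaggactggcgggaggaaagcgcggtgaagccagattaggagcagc
Egr2, chr10:67537619-67537918, plus strand: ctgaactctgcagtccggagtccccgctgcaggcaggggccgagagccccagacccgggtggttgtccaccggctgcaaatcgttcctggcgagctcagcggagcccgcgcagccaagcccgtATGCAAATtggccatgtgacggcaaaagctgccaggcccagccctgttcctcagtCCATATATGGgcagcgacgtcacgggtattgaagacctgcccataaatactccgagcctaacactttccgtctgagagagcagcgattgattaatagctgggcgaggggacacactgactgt
Zfp36, chr7:28379179-28379478, minus strand: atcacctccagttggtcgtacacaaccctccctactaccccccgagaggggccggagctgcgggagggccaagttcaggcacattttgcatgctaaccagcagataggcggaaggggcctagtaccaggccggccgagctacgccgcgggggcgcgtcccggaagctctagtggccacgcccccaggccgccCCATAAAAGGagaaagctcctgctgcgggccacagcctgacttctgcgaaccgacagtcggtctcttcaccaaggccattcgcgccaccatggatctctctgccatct
The capitals mark a match of letters and no measured binding.

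NF-κB, whose subunits are held in the cytoplasm by IκB proteins until a signal frees them, showed higher subunits and inhibitors. Of 18 genes on the list, 12 rose and 1 fell, with a median of 0.32. The subunit gene Rel, needed for B cell proliferation, stood at 542, 521 and 515 CPM in the KO-labelled libraries and 233, 250.3 and 255 CPM in the WT-labelled ones (1.10 ± 0.05). The inhibitor genes Nfkbid and Nfkbia rose by 1.38 ± 0.08 and 0.86 ± 0.07, Nfkbiz by 0.68 ± 0.09 and the deubiquitinase gene Tnfaip3 by 0.60 ± 0.07. Nfkbid stood at 104, 114 and 119 CPM in the KO-labelled libraries and 40.9, 41.3 and 47.8 CPM in the WT-labelled ones, so the groups did not overlap. Relb and Nfkb2 rose by 0.32 ± 0.09 and 0.31 ± 0.05, and Tnip2 fell by 0.33. Tnf, the cytokine target, was low but rose from 1.10 to 4.57 CPM (2.05 ± 0.37). Rela and the targets Icam1, Traf1, Birc3 and Bcl3 did not pass.

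Among genes of the B cell receptor, 3 inhibitory coreceptors fell and part of the signalling chain rose. Of 12 receptor and coreceptor genes, 3 fell, all inhibitory: Cd22 (720.4 ± 27.8 against 922 ± 26.1 CPM, a difference of -0.36 ± 0.04), Siglecg (-0.33 ± 0.06) and the Fc receptor gene Fcgr2b (-0.25 ± 0.06). Over all genes 10.1 % fell. The coreceptor genes Cd72 and Cd5 of this list, also inhibitory, did not pass. Cd79a rose by 0.21 ± 0.07, a call lost without KO-labelled replicate 1 (0.12), WT-labelled replicate 2 (0.19) or WT-labelled replicate 3 (0.17). Of 22 signalling genes, 11 rose and 2 fell, with a median of 0.15, and 1 fell with DESeq2 or without any single library but KO-labelled replicate 1. Of genes that link the receptor to NF-κB, the adaptor Bcl10 rose by 0.58 ± 0.07 and the protease Malt1 by 0.21 ± 0.05. Bcl10 stood at 85.7 ± 3.02 against 57.3 ± 3.26 CPM. The PI3-kinase adaptor Pik3ap1 (0.54 ± 0.04), the calcium-regulated factor Nfatc1 (0.54 ± 0.06) and Rasgrp3 (0.49 ± 0.07) also rose, and the phosphatase Inpp5d fell by 0.20. The kinases Syk and Btk differed by -0.05 ± 0.04 and -0.10 ± 0.05 and did not pass.

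Lineage factors changed in both directions, 7 of 19 higher and 2 lower, beside 11.0 and 10.1 % of all genes. Foxo1, which keeps naive B cells quiescent and drives homing receptors, stood at 112, 108 and 100.3 CPM in the KO-labelled libraries and 67.8, 59.97 and 63.1 CPM in the WT-labelled ones (0.74 ± 0.07). Irf4, a factor whose dose steers activated B cells towards plasma cells, stood at 208, 209 and 209 CPM in the KO-labelled libraries and 146, 151 and 151 CPM in the WT-labelled ones (0.48 ± 0.05). Mef2c, a calcium-responsive factor, reached 1488 ± 15.5 against 1067 ± 14.6 CPM (0.48 ± 0.04). Spi1, Ikzf3, Ets1 and Bach2 rose by 0.51, 0.28, 0.27 and 0.26. Irf8, which limits plasma cell formation, stood at 563, 618 and 668 CPM in the KO-labelled libraries and 811, 771 and 845 CPM in the WT-labelled ones and fell by 0.39, and the octamer coactivator Pou2af1 fell by 0.42. In each of these genes the KO-labelled and WT-labelled values did not overlap.

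Genes of follicular B cells and of homing were divided. Ccr7, the receptor for T zone chemokines, stood at 117, 112 and 113 CPM in the KO-labelled libraries and 73.3, 71.9 and 67.8 CPM in the WT-labelled ones (0.68 ± 0.06), and Klf2, which controls exit and homing of naive lymphocytes, rose by 0.83 ± 0.07. Btla, an inhibitory receptor, stood at 245, 238 and 252 CPM in the KO-labelled libraries and 415, 478 and 469 CPM in the WT-labelled ones (-0.89 ± 0.05; edgeR, adjusted p = 9.8e-14). Il4ra, the receptor chain for IL-4, fell by 0.29, Cxcr4 by 0.34 and Gpr183, which guides activated B cells to the follicle edge, by 0.33. In all, 7 of 14 follicular genes rose and 4 fell. With upper-quartile scaling 5 rose and 4 fell, and without KO-labelled replicate 2 or 3, 5 rose and 3 fell. The marginal zone genes Dtx1 and Notch2 rose by 0.29 and 0.24, and none of 6 genes of the B-1 list passed, or 1 fell without WT-labelled replicate 2. The complement receptor Cr2 and the follicular chemokine receptor Cxcr5 differed by 0.06 ± 0.04 and 0.14 ± 0.06 and did not pass.

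Activation genes were more often higher than lower, 9 against 3 of 18. The counts were 7 against 4 with upper-quartile scaling and 6 against 3 without WT-labelled replicate 3. They were 7 against 3 without KO-labelled replicate 2 or 3 or WT-labelled replicate 1 or 2. Cd69, an early activation antigen that holds lymphocytes in the node, stood at 201, 206 and 210.4 CPM in the KO-labelled libraries and 104, 98.3 and 99.7 CPM in the WT-labelled ones (1.03 ± 0.06; edgeR, adjusted p = 1.2e-14). Icosl, Slamf1 and the cyclin gene Ccnd2 fell by 0.34, 0.38 and 0.53, and the activation marker Cd83 did not pass (-0.12 ± 0.05) but was called lower with the replicate block (-0.12), upper-quartile scaling (-0.14) and without KO-labelled replicate 1 (-0.11). Of 12 germinal centre genes 3 rose and 1 fell, beside 11.0 and 10.1 % of all genes. Those that rose were Rgs13 (0.90 ± 0.22), Nuggc (0.61 ± 0.07) and Basp1 (0.51 ± 0.07). Klhl6 fell, a call lost without KO-labelled replicate 2 (-0.15). Bcl6, the factor that defines these cells, differed by -0.20 ± 0.08 and did not pass. Of 15 plasma cell genes 3 rose and 3 fell, among them the elongation factor Ell2 (0.52 ± 0.11) and the chaperone Fkbp11 (-1.36 ± 0.33). Of 17 genes of G1 and S phase 2 rose and 2 fell, close to the 21.1 % called over all genes, with 1 risen without KO-labelled replicate 2 or 3 or WT-labelled replicate 2 or 3 and 1 fallen with DESeq2 or without any single library but KO-labelled replicate 2. Among them were Pcna at 0.69 ± 0.08 and Ccne1 at -0.90 ± 0.17. Of 17 G2 and M phase genes 2 rose. None did without KO-labelled replicate 2, WT-labelled replicate 2 or WT-labelled replicate 3, and 1 did without KO-labelled replicate 3 or WT-labelled replicate 1. Mki67 differed by -0.07 ± 0.04 and did not pass.

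Stress responses rose in part. In the integrated stress response, which lowers translation and induces the transcription factor Atf4, 7 of 12 genes rose and 1 fell, with a median of 0.52. Atf4 stood at 249, 244 and 261 CPM in the KO-labelled libraries and 145, 153 and 163 CPM in the WT-labelled ones (0.71 ± 0.05), and its targets Ddit3, which codes for CHOP, Cebpb and Sesn2 rose by 0.82 ± 0.08, 0.96 ± 0.16 and 1.14 ± 0.27. Slc3a2, a chain of amino acid transporters, rose by 0.56 ± 0.06, and Ddit4, an inhibitor of mTORC1, fell by 0.78. Ppp1r15a, described above, is also a member of this list.

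Heat shock genes, the chaperones induced by unfolded protein in the cytosol, rose for 10 of 19 members with none lower, although 2 were lower with upper-quartile scaling and 1 without KO-labelled replicate 1. The inducible Hsp70 gene Hspa1a stood at 935, 899 and 927 CPM in the KO-labelled libraries and 331, 337 and 342 CPM in the WT-labelled ones (1.45 ± 0.04; edgeR, adjusted p = 1.9e-20) and its near-identical copy Hspa1b rose by 1.31 ± 0.04, so how the counts divide between the pair is uncertain. The cochaperone Dnajb1 stood at 166, 194 and 205 CPM in the KO-labelled libraries and 83.1, 75.7 and 80.9 CPM in the WT-labelled ones (1.24 ± 0.07). Hsp90aa1 reached 3615 ± 265 against 2426 ± 3.25 CPM (0.58 ± 0.04), and Dnaja1, Hspa8 and Hsp90ab1 rose by 0.47, 0.37 and 0.24. The heat shock element was in 4 of the 16 promoters found for this list (25.0 %), those of Hspd1, Hspe1, Hsph1 and Chordc1, beside 0.662 % of all promoters and 0.541 % of those of genes tested. Of these 4 genes Hsph1 alone was called (0.18 ± 0.05), and its match lies after the start. The Hspd1 and Hspe1 windows overlap on opposite strands and hold the same stretch of DNA, which was counted for both genes. In the endoplasmic reticulum, where antibody chains are folded, 3 of 16 stress genes rose and 5 fell. Dnajb9 stood at 62.2, 55.3 and 53.2 CPM in the KO-labelled libraries and 18.1, 22.1 and 21.4 CPM in the WT-labelled ones (1.47 ± 0.10), the Hsp70 chaperone Hspa5 rose by 0.46 ± 0.04, Pdia4 stood at 357, 397 and 434 CPM in the KO-labelled libraries and 669, 649 and 674 CPM in the WT-labelled ones (-0.75 ± 0.05), and Xbp1, the factor of this response, did not pass (-0.04 ± 0.06).

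Genes of survival and of TGF-β signalling that passed were mostly higher. Of 13 BCL2 family genes 6 rose and 1 fell, a fall lost with DESeq2, no filter and the replicate block and without each single library but WT-labelled replicate 3. The proapoptotic Pmaip1, which codes for NOXA, stood at 103, 108 and 116 CPM in the KO-labelled libraries and 39.8, 36.7 and 42.5 CPM in the WT-labelled ones (1.46 ± 0.07), proapoptotic Bmf rose by 0.98 ± 0.20, and the survival genes Mcl1 and Bcl2 by 0.67 ± 0.04 and 0.26 ± 0.07. Members that promote and that restrain cell death thus rose in the same libraries. In the TGF-β pathway 7 of 12 genes rose and none fell, or 1 fell without KO-labelled replicate 2. The ligand gene Tgfb1 (0.50 ± 0.06) and the receptor gene Tgfbr2 (0.44 ± 0.05) rose together with the transcriptional repressors Tgif1 (118 ± 6.30 against 58.9 ± 3.15 CPM), Ski (0.30 ± 0.07) and Skil (0.81 ± 0.05). Skil stood at 311, 328 and 342 CPM in the KO-labelled libraries and 193, 179 and 186 CPM in the WT-labelled ones.

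The glucocorticoid-responsive list, 4 higher and 3 lower of 7, held opposite changes. Fkbp5, a chaperone of the glucocorticoid receptor and a standard target of it, stood at 43.2, 53.2 and 56.4 CPM in the KO-labelled libraries and 198, 191 and 203 CPM in the WT-labelled ones (-1.95 ± 0.07; edgeR, adjusted p = 3e-18), while Sgk1 rose by 0.85 ± 0.19. Per1, a clock gene also induced by signals, stood at 143, 134 and 133 CPM in the KO-labelled libraries and 52.9, 64.6 and 63.7 CPM in the WT-labelled ones (1.18 ± 0.07), and Ciart and Bhlhe40 rose by 1.69 ± 0.20 and 0.49 ± 0.09, with 4 of 14 clock genes higher and none lower. Cholesterol and fatty acid genes rose for 7 of 23 members with none lower, including Insig1 (1.12 ± 0.15), a sterol-sensing regulator of the pathway, and the synthesis enzymes Hmgcs1 (0.72 ± 0.11) and Cyp51 (0.71 ± 0.13). In glycolysis the glucose transporter Slc2a3 rose by 0.74 ± 0.10 and hexokinase Hk2 fell by 0.66, with 2 of 18 genes higher and 5 lower, or 1 higher and 3 lower without WT-labelled replicate 3 and 1 higher without KO-labelled replicate 1. Of 10 tested protein genes of the mitochondrial genome 6 fell, by 0.36 for mt-Nd2, 0.35 for mt-Nd4 and 0.25 for mt-Cytb among others, beside the lower mitochondrial share of counts. Nuclear respiratory genes gave 5 higher and none lower of 77, but 3 higher and 1 lower without WT-labelled replicate 2, 3 higher without WT-labelled replicate 3, and 3 higher and 2 lower with upper-quartile scaling. Cytosolic ribosomal proteins gave 2 lower of 81, a count that ran from 0 without WT-labelled replicate 3 to 8 without KO-labelled replicate 3.

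**Figure D3:**
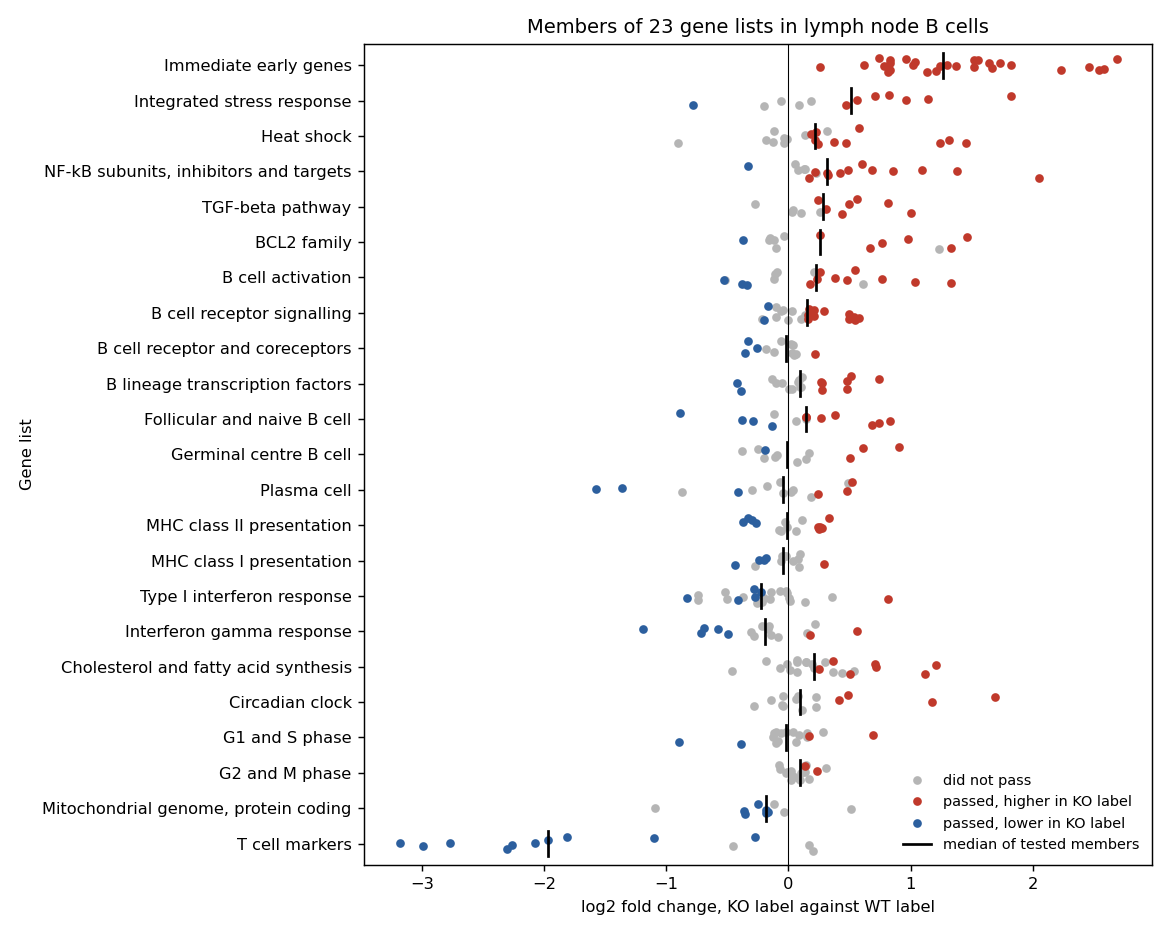
Log2 fold change of KO-labelled over WT-labelled lymph node B cells (x axis) for each tested member of 23 gene lists (rows), red or blue where the member passed higher or lower and grey where it did not, with a black bar at the median of tested members. All 28 immediate early genes lie to the right of 0 around a median of 1.27, and the T cell marker row reaches furthest left around a median of -1.97.

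Antigen presentation by MHC class II, the route by which B cells show antigen to helper T cells, was split. The structural genes H2-Ab1 (8137 ± 138 against 6473 ± 321 CPM, 0.33 ± 0.04), H2-Eb1 (0.26 ± 0.04) and the invariant chain Cd74 (0.25 ± 0.04) rose, whereas Ciita, the transactivator of these genes, stood at 637 ± 14.5 against 785 ± 15.2 CPM and fell by 0.30, and the ubiquitin ligase Marchf1 fell by 0.37. In all, 5 of 15 rose and 4 fell. MHC class I gave 1 higher and 4 lower of 14, but 1 lower without KO-labelled replicate 3 and 2 without KO-labelled replicate 2 or WT-labelled replicate 3. Of 25 type I interferon genes 5 fell, 8 with upper-quartile scaling, and 1 rose, a rise lost without KO-labelled replicate 1 or 2 or WT-labelled replicate 1 or 2. Over all genes 10.1 % fell and 21.1 % were called. Genes that fell were Xaf1 at -0.83 ± 0.13, Ifit3 at -0.41 ± 0.11, Irf9 at -0.28 ± 0.07 and Trim30a at -0.28 ± 0.05. Isg15 and Mx1, antiviral genes of the same list, differed by -0.52 ± 0.48 and -0.21 ± 0.10 and did not pass. Of 16 interferon gamma genes 5 fell and 2 rose, or 1 rose without KO-labelled replicate 2 or 3 or WT-labelled replicate 1 or 2. The guanylate-binding protein genes Gbp3, Gbp7 and Gbp5 fell by 0.72, 0.69 and 0.58, and Irf1 rose by 0.56 ± 0.07. Gbp3 stood at 159.9, 181 and 177 CPM in the KO-labelled libraries and 290.3, 270.3 and 291 CPM in the WT-labelled ones, without overlap. Toll-like receptor genes gave 3 higher and 2 lower of 14, or 1 lower without KO-labelled replicate 3 or WT-labelled replicate 3, with the endotoxin receptor Tlr4 at -0.94 ± 0.23, and cytokine receptors 5 higher and 2 lower of 17, with Il5ra at 0.48 ± 0.11 and Ifngr1 at 0.47 ± 0.08.

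The antibody constant genes differed by class. Ighg1, the constant region of IgG1 on chromosome 12 at 113288860 to 113294143 of GRCm39, stood at 186, 173 and 182 CPM in the KO-labelled libraries and 499, 476 and 502 CPM in the WT-labelled ones, a difference of -1.45 ± 0.05 (edgeR, adjusted p = 2.4e-19). Ighe, for IgE, stood at 10.01, 7.52 and 8.86 CPM in the KO-labelled libraries and 22.7, 24.5 and 21.2 CPM in the WT-labelled ones (-1.37 ± 0.14), and Ighg2b fell by 0.49. Igha, for IgA, at 113218450 to 113223856 of the same chromosome, moved the other way at 40.02, 32.3 and 33.2 CPM in the KO-labelled libraries and 8.37, 7.02 and 8.93 CPM in the WT-labelled ones (2.12 ± 0.13; edgeR, adjusted p = 3.4e-13), as did Ighg2c at 84.5, 80.1 and 79.4 CPM in the KO-labelled libraries and 55.5, 52.4 and 53.7 CPM in the WT-labelled ones (0.59 ± 0.07). The KO-labelled values lay wholly below the WT-labelled ones for IgG1 and IgE and wholly above them for IgA and IgG2c. Ighm, Ighg3 and the light chain Igkc differed by 0.10 ± 0.04, -0.05 ± 0.08 and -0.08 ± 0.04 and did not pass.

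As a share of all heavy-chain constant counts, Ighg1 made up 8.05 ± 0.117 % in the KO-labelled and 19.8 ± 0.396 % in the WT-labelled libraries, and Ighm 64.2 ± 0.0446 and 54.1 ± 0.563 % (SD, n = 3). Igha made up 1.57 and 0.326 % and Ighe 0.391 and 0.917 %. Each of these shares separated the groups, with an exact permutation p of 0.10, the smallest that 3 libraries against 3 can give (two-sided). Immunoglobulin genes together took 0.495 ± 0.0209 and 0.555 ± 0.0143 % of all counts. Constant genes of the IgG classes resemble each other, so reads may be divided between them with error.

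**Figure D4:**
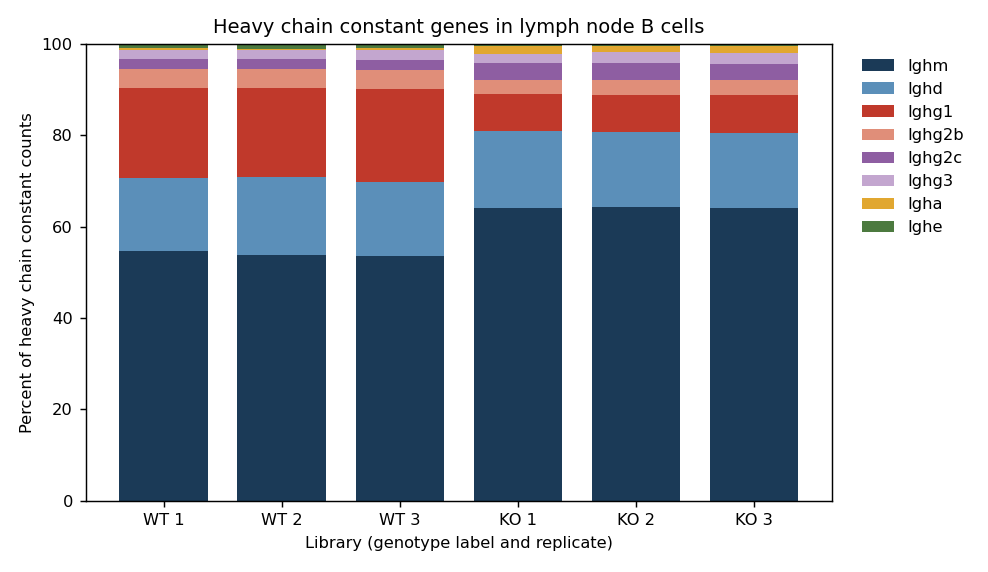
Stacked bars of the share of heavy-chain constant counts (y axis, percent) taken by each of the 8 constant genes in each lymph node B cell library (x axis, label and replicate). The red Ighg1 band averages 19.8 % in the WT-labelled and 8.05 % in the KO-labelled libraries, and the Ighm band at the foot 54.1 and 64.2 %.

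Among the variable segments, which together with the constant genes make up antibody chains, some differed by more than any constant gene. Of 95 heavy-chain segments tested 12 rose and 20 fell. Ighv1-12 stood at 3.90, 3.33 and 3.70 CPM in the KO-labelled libraries and 42.7, 34.1 and 35.9 CPM in the WT-labelled ones (-3.36 ± 0.15), and Ighv9-2, Ighv1-59 and Ighv9-3 fell by 3.14, 2.36 and 1.45, whereas Ighv1-5 and Ighv10-1 rose by 1.33 ± 0.15 and 1.03 ± 0.14. Of 74 kappa segments 12 rose and 8 fell, or 5 lower without WT-labelled replicate 2. Igkv1-88, on chromosome 6 at 68839249 to 68840015, stood at 48.6, 58.2 and 65.3 CPM in the KO-labelled libraries and 10.6, 6.61 and 8.23 CPM in the WT-labelled ones (2.76 ± 0.13) and made up 11.0 ± 1.84 % of kappa segment counts in the KO-labelled and 1.83 ± 0.356 % in the WT-labelled libraries. Igkv13-85 and Igkv4-70 fell by 2.56 and 2.52. The 3 libraries of a label lay close together for these segments. The labels do not say whether they are separate mice or repeats of the same pool. A difference between genotypes thus cannot be told apart from a difference between pools. Near-identical segments share reads, so the assignment to 1 of them is uncertain.

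Most markers of T cells and of stroma and endothelium were at low levels, and most of those tested fell. Of 13 tested T cell markers 10 fell, with a summed level of 58.9 to 64.6 CPM in the KO-labelled and 116 to 126 CPM in the WT-labelled libraries. Cd247, 60.3 % of whose exon bases overlap other genes, took 38.3 against 46.2 CPM of these sums. Thy1 stood at 3.42, 4.44 and 3.70 CPM in the KO-labelled libraries and 15.2, 17.3 and 16.3 CPM in the WT-labelled ones (-2.08 ± 0.18), and Cd3e and Cd4 fell by 3.18 and 2.99. Of 8 tested markers of stroma and endothelium 7 fell, with a sum of 213 to 232 against 332 to 362 CPM. Col3a1 stood at 0.325, 1.37 and 1.13 CPM in the KO-labelled libraries and 49.5, 45.3 and 53.4 CPM in the WT-labelled ones (-5.71 ± 0.20), and Col1a2 rested on 4 counts over the KO-labelled and 848 over the WT-labelled libraries. Pecam1 took 212 against 204 CPM of that sum and differed by 0.06 ± 0.05, without passing, and the endothelial marker Madcam1 was at 0 in all 6 libraries.

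Melanoma markers summed to 6.30 to 7.37 against 16.2 to 20.8 CPM, with 1 of 3 lower, Dct at 0.163, 0.171 and 0.322 CPM in the KO-labelled libraries and 7.84, 12.5 and 7.70 CPM in the WT-labelled ones, and Mlana and Oca2 at 0 in all libraries. The 3 tested neutrophil markers fell, with a sum of 0.166 to 0.738 against 5.24 to 6.13 CPM and 1 count of Ngp over the KO-labelled libraries. Macrophage markers, 622 to 655 against 610 to 631 CPM, included a rise of Lyz2 (0.55 ± 0.12), and no NK (2 tested), dendritic (4) or erythroid (2) marker passed, save 1 erythroid marker without KO-labelled replicate 3. The part of these cells in the gene groups above was not tested. The largest falls among genes over 5 CPM were all in genes of the extracellular matrix or its secreted partners, namely Col1a1, Col1a2, Col3a1, Col4a1, Col5a1, Col5a2, Col6a1, Col6a2, Col6a3, Fn1, Fstl1 and Sparc. Il7r, a receptor of T cells and B cell precursors, fell by 2.73.

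Besides the immediate early genes and Igha, the largest rises by the same rule, which leaves out variable segments such as Igkv1-88, were in Il1b, Magi1, Tob1, Xlr3b, the mitochondrial tRNA gene mt-Tc and Tdg-ps2, a pseudogene whose near-identical copy is Tdg. Il1b, an inflammatory cytokine of myeloid cells mainly, stood at 12.9, 7.78 and 9.66 CPM in the KO-labelled libraries and 2.47, 1.98 and 1.49 CPM in the WT-labelled ones (2.35 ± 0.25). Tob1, an antiproliferative relative of Btg2, rose by 1.98 ± 0.12, and the scaffold gene Magi1 by 2.18 ± 0.12. Among genes used to mark regulatory B cells 5 of 9 rose and 1 fell, a fall lost without KO-labelled replicate 1 or 3 or WT-labelled replicate 2 or 3, or 3 higher without KO-labelled replicate 3, WT-labelled replicate 1 or WT-labelled replicate 2, with Il12a at 17.02 ± 1.69 against 8.80 ± 1.72 CPM (0.95 ± 0.16) and Havcr1 at 1.19 ± 0.27. Il10, the cytokine that defines their function, was too low to be tested. Socs3, a feedback inhibitor of cytokine signals, fell by 0.37, with 1 of 6 genes of its list higher and 1 lower, or 2 lower without KO-labelled replicate 1. Among the remaining lists, p53 targets gave 2 higher and 2 lower of 11, with Sesn1 at -0.77 ± 0.07, and ribosome biogenesis 1 and 1 of 14, or 3 higher without KO-labelled replicate 1 and none lower without WT-labelled replicate 1 or 2. Receptors for BAFF, APRIL and CD40 ligand gave 3 higher and 1 lower of 7, but 1 higher without KO-labelled replicate 2 or WT-labelled replicate 2 and 2 lower without KO-labelled replicate 1. Ligands for T cells gave 3 higher and 1 lower of 7, but 1 higher without KO-labelled replicate 3 and 2 lower without KO-labelled replicate 1 or 2 or WT-labelled replicate 3, and memory and atypical B cell genes 2 higher and 1 lower of 8, but 1 higher without KO-labelled replicate 1 or 3 or WT-labelled replicate 1 or 2. Tbx21, a factor of atypical memory B cells, rose by 1.27 ± 0.30 at a level of 4.31 against 1.77 CPM.

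Whether these differences were particular to the node was tested against B cells of the tumour in a fit on 12 libraries that share no sample between the tissues. The difference between labels itself differed between tissues for 3086 of 14737 genes (20.9 %), higher in the node for 1260 (8.55 %) and lower for 1826 (12.4 %), or 1533 and 1580 with upper-quartile scaling. Of the lymph node calls, 2775 were tested in the tumour and 1834 were called there too, where 40.1 % of all genes were called. Of the 3086 genes, 813 were called in both tissues and 162 of these in opposite directions.

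Immediate early genes rose in both tissues, 25 of 29 in the tumour, but not to the same extent. The Fos difference was 2.59 in the node and 1.45 in the tumour (difference of differences 1.14 ± 0.10; edgeR, adjusted p = 1.5e-08), whereas Fosb had 2.69 and 4.09 (-1.39 ± 0.10) and Klf4 2.54 and 3.73 (-1.18 ± 0.12). In all, 7 members had a higher and 14 a lower difference in the node. Heat shock, proliferation and germinal centre genes had larger rises in the tumour. There 16 of 19 heat shock genes rose, and 13 had a lower difference in the node, with Hsp90aa1 at 0.58 and 1.86. Of the G2 and M phase genes 13 rose in the tumour and 10 differed between tissues, all lower in the node, Mki67 among them (-1.55 ± 0.11). For the germinal centre list the counts were 8 risen in the tumour and 9 with a lower difference in the node.

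Some antibody classes took opposite directions. Igha rose by 2.12 in the node and fell by 2.14 in the tumour (4.26 ± 0.15), and Ighg1 fell by 1.45 in the node and rose by 0.72 in the tumour (-2.16 ± 0.09). On the list of 13 constant genes with Jchain, 3 had a higher and 4 a lower difference in the node, and 6 did not pass. The Ighm and Ighg2c shares of heavy-chain constant counts were higher with the KO label in both tissues. In the tumour they were 41.3 against 35.5 % and 29.9 against 20.9 %. A share also rises where that of another class falls. The Igha share was 3.87 against 19.3 % in the tumour, and the Ighg1 share 8.05 against 19.8 % in the node. The Ighm level itself did not pass in the node. Igkv1-88 and Il1b, both higher in the node, fell in the tumour by 1.10 and 1.14. Fkbp5 fell in both, by 1.95 and 2.42. Markers of other cells moved with these results: 12 T cell markers rose in the tumour B cell libraries labelled KO, Thy1 by 3.26 ± 0.19, and Lyz2 fell there by 2.20, so the tissues differed in the opposite sense for T cell and myeloid markers. Their part in the tissue difference was not tested.

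**Figure D5:**
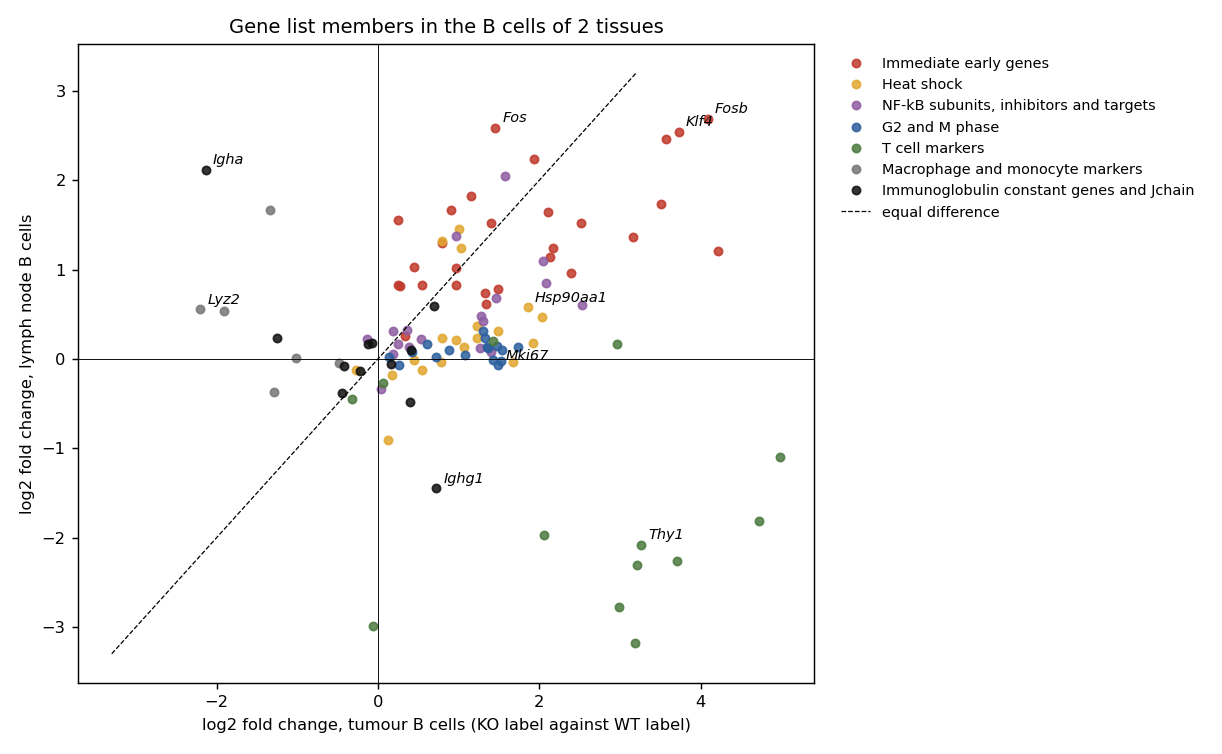
Log2 fold change of KO-labelled over WT-labelled libraries in lymph node B cells (y axis) against that in tumour B cells (x axis) for the members of 7 gene lists, coloured by list, with a dashed line where both would be equal. Fos lies above the line and Fosb below it, both at upper right, Igha at upper left, and Ighg1 and most T cell markers at lower right.

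Against lymph node Tregs, 1656 of 15562 genes differed in their difference between labels (10.6 %), higher in B cells for 575 (3.69 %) and lower for 1081 (6.95 %), or 715 and 926 with upper-quartile scaling. Of 2760 lymph node B cell calls tested in the Tregs, 1397 were called there, where 25.2 % of all genes were. The immediate early genes rose in the Tregs too, 28 of 29 with 1 lower, but 13 had a higher and 4 a lower difference in the B cells. Fos had 2.59 in B cells and 1.32 in Tregs (1.27 ± 0.07; edgeR, adjusted p = 6.2e-16), and Junb 2.23 and 1.22 (1.01 ± 0.06). Fkbp5 fell by 1.95 and 1.05 (-0.90 ± 0.09) and Btla differed by -0.89 and -0.13 (-0.76 ± 0.09). Ighg1 was lower by 1.45 and 1.89 and Igha higher by 2.12 and 2.22, whereas the segment Ighv1-55 took opposite directions (0.58 and -2.39). In the Treg libraries labelled KO, 11 of 12 B cell receptor genes and Mef2c (2.78 ± 0.09) were higher, and their part in this comparison was not tested.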

How the data were processed

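The authors deposited 1 table that holds 56791 genes by 24 libraries in raw read counts. Per the labels, RNA came from TRIzol extraction and a stranded mRNA kit. Per the submitters' processing notes, fastp 0.23.4, STAR 2.5.3a and featureCounts were used, with builds GRCh38 and GRCm39. The strand setting is not given in the sources used here, so overlapping genes are marked. Of the counts from 1 to 10, 69.7 to 74.4 % were even, as arises when both mates are counted, in which case counts overstate the number of fragments.

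Counts were tested with edgeR 4.0.16 (R 4.3.3; TMM, filterByExpr, quasi-likelihood F test, two-sided), with Benjamini-Hochberg adjustment over all genes tested and calls at 0.05. The 6 lymph node B libraries were fitted together, and interactions with tissue and cell type used 12 libraries. Standard errors are the size of the log2 fold change over the square root of F. The fit was also run on simulated counts with the same spread setting for all genes and no doubled counts. That differs from these data, so it does not measure the error rate of the calls here. Named genes were Appl2, Appl1, Foxp3, Nnt, the B cell markers and sex-linked genes, the 12 largest called changes in each direction with a mean of at least 5 CPM over the 6 libraries and no overlap, up to 4 genes with the smallest p from each of 53 lists, the 5 largest segments and the 6 largest interactions in each direction. Other named genes were chosen after their values were seen. Members and lists were chosen with earlier results of these data known. Upper-quartile scaling, DESeq2 1.42.0, no filter, a replicate block, leaving out immunoglobulin genes and leaving out each of the 6 lymph node B libraries were tried. No tumour or Treg library was left out of the interaction fits. Some genes are not reported here.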

Additional observations from a re-analysis of the deposited data

Results flagged for a closer look

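Each result below was picked out because its difference between labels in lymph node B cells was itself different from that in another cell population by an interaction test in edgeR (adjusted p under 0.05). This held against tumour B cells for 3086 genes and against lymph node Tregs for 1656. No group held more than 3 libraries, so no library was tested as standing apart within its group.

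Against tumour B cells, the difference of log2 differences was -6.08 for Cd8b1, -5.76 for Bcl11b, -5.51 for Cd3g, -5.33 for Thy1 and -4.72 for Ctla2a, all genes of T cells or cytotoxic lymphocytes. It was 4.26 for Igha, 3.88 for Igkv1-88, 3.82 for Igkv1-110 and -2.16 for Ighg1. The myeloid genes gave 3.50 for Il1b and 2.77 for Lyz2, and the haemoglobin genes 3.32 for Hbb-bt and 6.33 for Hba-a2. Among genes named in the report it was 1.14 for Fos, -1.39 for Fosb, -1.18 for Klf4, -1.27 for Hsp90aa1, -1.21 for Skil and -1.55 for Mki67. The Hba-a2 value rests on 12 counts in the KO-labelled and 0 in the WT-labelled lymph node B libraries and depends on the prior count. The Hbb-bt call was lost without KO-labelled replicate 1 or WT-labelled replicate 2 of the node.

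Against lymph node Tregs, it was 1.27 for Fos, 1.01 for Junb, -0.90 for Fkbp5, -0.76 for Btla and -2.30 for Mef2c. The chemokine receptor gene Ccr2 gave 2.43. Among segments it was 3.44 for Ighv9-3, 2.96 for Ighv1-55, 2.81 for Igkv6-17, 2.73 for Ighv7-3 and -6.20 for Ighv4-2. Fitted values of 8.57 for Glycam1, -5.58 for She, -5.58 for Trbv29, -5.52 for Gm47050, -5.22 for Trav10 and -5.17 for Il12a rest, as does that of Ighv4-2, on a group with at most 3 counts, so they depend on the prior count and are no bounds. The Gm47050 call was lost without WT-labelled replicate 2 of the lymph node B cells. That of Trav10 was lost when most single lymph node B libraries were left out.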

How the results depend on the processing

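The count of 2872 genes called in lymph node B cells was 2863 with upper-quartile scaling, 2512 with DESeq2, 2914 with no filter and 2803 without immunoglobulin genes, and ran from 2217 to 2831 with 1 library left out. With 1 lymph node B library left out, the tissue interaction ran from 2521 to 2649 and the cell type interaction from 1378 to 1575. The main counts were 3086 and 1656, and no other setting moved either by 1.5 times. Tumour and Treg libraries were not left out. Among tumour B cells, KO-labelled replicate 1 had a chi-square per gene of 11.5 and 10.7 against its group, and WT-labelled replicate 2 had 8.47 and 7.89. Upper-quartile scaling changed the share of higher genes among those called from 52.2 to 46.0 % in the node, from 40.8 to 49.2 % for the tissue interaction and from 34.7 to 43.6 % for the cell type interaction. The replicate block gave 2830, 3018 and 1555 calls for the 3 comparisons. The labels do not say whether a replicate number pairs libraries. Deviations of the same number correlated at 0.0644, 0.00336 and -0.00255, which cannot decide it, since pairing need not leave a correlation over all genes. Of 342 values for named genes, 281 kept their direction and their side of the threshold under every setting. The 4 that changed direction were never called: Ddx3y ran from -0.123 to 0.00346, Flt3 from -0.155 to 0.0942, Fscn1 from -0.61 to 0.20 and Hba-a1 from -0.54 to 0.15 with 1 library left out, and the cause was not tested. Among genes named in the report, Foxp3 and Cd83 passed with upper-quartile scaling, Ighm and Cd83 with the replicate block, and Pax5 and Cd83 without KO-labelled replicate 1. Genes under about 5 CPM rest on few counts, which limits the marker lists of other cells.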
